A study of Mus musculus with 4 samples.

Results

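The strongest sites of Tbx20 binding in the adult mouse heart were taken as peaks on chromosomes 1 to 19 scoring 60 or more. The score is the value that the peak caller QuEST gave each peak, and strongest here means highest in that score. The members were thus chosen by their measured scores, and 280 of the 4012 deposited peaks met this rule. The rule selected 7.05% of the 3972 autosomal peaks. Another 3692 autosomal peaks scored lower and served as the comparison, and 2 peaks of chromosome X that reached the same score lay outside the rule. The peaks came from chromatin immunoprecipitation with sequencing (ChIP-seq), in which DNA bound by a protein is recovered with an antibody, sequenced and compared with unselected input DNA. The 1 immunoprecipitate was made with a goat antibody against green fluorescent protein (GFP) from whole hearts of mice of the CD1 strain, 2 months old, carrying Tbx20 fused to GFP. Its 3 inputs were whole heart DNA of the same strain, labelled E11.5 for 2 of them and E9.5 for the third, so the inputs carry embryonic ages and the immunoprecipitate an adult one. The design text calls them whole heart input and gives them no age. How the fusion was introduced, and how many hearts were pooled, was not stated in the labels.

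Tbx20 belongs to the T-box family of transcription factors, which bind DNA through a shared domain. It acts with other cardiac factors during the formation of the chambers and valves. In adult heart muscle cells it remains necessary for normal contraction and rhythm, and it is known both to activate and to repress genes. A whole heart holds muscle cells, fibroblasts, vascular cells and blood cells, and the peaks are a sum over those that express the fusion. ChIP peaks of such factors can lie at promoters or at distant regulatory DNA, and the score of a peak orders sites within 1 list without giving an occupancy. The peaks below are named by position on mm9 as deposited, since no gene annotation or sequence of that build was used here.

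Scores of the 280 peaks ran from 60.2 to 294, with a median of 78.4 and quartiles of 67.8 and 96.8. These scores chose the peaks and are given only as a description. Most of the peaks sat near the minimum, with 149 below 80, whereas 61 reached 100 and 16 reached 150. The lowest 3 inside the rule were chr5:120101705-120102167, chr7:87264118-87264480 and chr8:23676037-23676309, each with a score of 60.2. Just outside it were chr5:23858455-23858654 with a score of 59.7 and the peaks chr17:44352225-44352422 and chr15:82036722-82036959, both with a score of 59.6. No gap in score therefore set the strongest peaks apart from the rest. Exact ties were found at 165 of the 280 peaks, beside 34.7% of all autosomal peaks, so the order of these is not resolved by score. Score chose the peaks, and nothing is read from this difference.

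All 280 peaks stood within the first 673 places of the list as deposited, a stretch that held 660 autosomal peaks or 16.6% of them. The other 380 autosomal peaks in this stretch had a median score of 26.2. Scores in the list were bounded from above by a ceiling, here the maximum score found at a peak's own place or later. Within 2% of that ceiling lay 221 of the 280 strongest peaks, beside 36.3% of all autosomal peaks. The choice of high scores favours this by construction. The remaining 59 ranged from 36.1% to 94.7% of the ceiling, with a median of 72.3%. They stood earlier in the list, at a median place of 125 against 374 for those at the ceiling. A peak below the ceiling has a higher score later in the list by definition. This order therefore follows in part from the definition, and nothing is read from it. The plot of score against place shows the red points of the strongest peaks as a curve along the ceiling with a scatter of points beneath it.

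**Figure D1:**
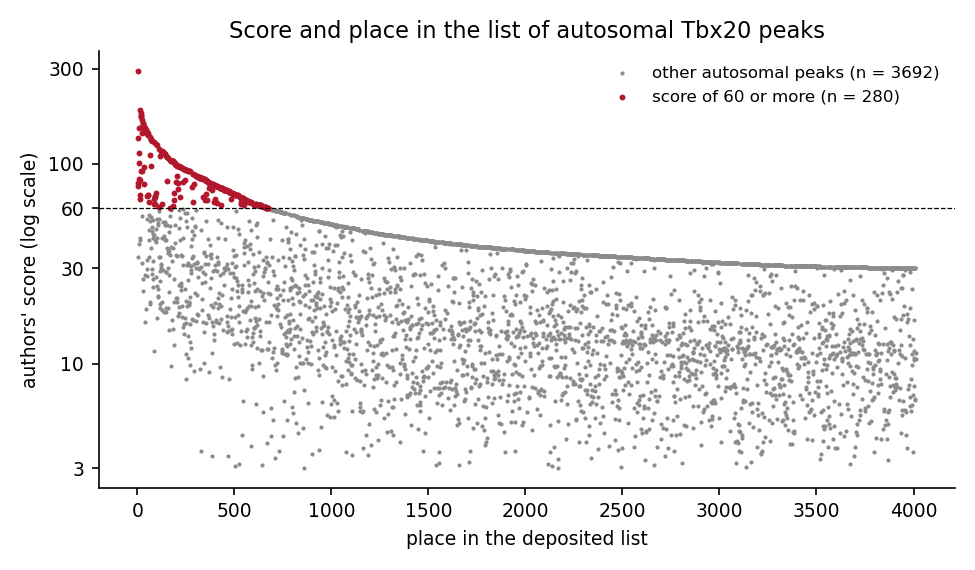
Authors' score (vertical axis, log scale) against place in the deposited list (horizontal axis) for all autosomal peaks, 1 point a peak, with the 280 peaks scoring 60 or more in red and the 3692 others in grey. The red points end at place 673 and 221 of them follow the upper edge, while grey points occur from the start of the list.

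The highest peak of the list, chr9:7270138-7270420, had a score of 294 and was 282 bp wide, and its nearest neighbour lay 139 kb away with a score of 9.17. Chromosome 2 was led by chr2:128013152-128013502 with a score of 180.1, chromosome 4 by chr4:123132532-123132844 with 173 and chromosome 10 by chr10:20206541-20207204 with 171. Scores between 150 and 170 led chromosome 15 (chr15:86002550-86002928), chromosome 18 (chr18:40412367-40412764), chromosome 12 (chr12:107396861-107397392), chromosome 7 (chr7:56488441-56488875), chromosome 1 (chr1:137454550-137454955), chromosome 16 (chr16:43610476-43610703) and chromosome 17 (chr17:73371706-73372446). Apart from those of chromosomes 9 and 3, the maxima of the autosomes ran from 129 on chromosome 13 to 180.1 on chromosome 2. On chromosome 3 the highest peak was chr3:96866773-96867075 with a score of 86.5, and all 10 strongest peaks there scored between 62.0 and 86.5. On each of the other 18 autosomes the highest score was at least 129.

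Ranks 16 to 30 covered scores from 151 to 131 and fell on 10 autosomes. The first of them, chr7:109430823-109431240, had a score of 151 and a nearest neighbour 386 kb away. It was followed by chr15:102132924-102133345 and chr14:118109662-118109956, both with a score of 149. Next came chr12:104591886-104592147 with a score of 147, whose nearest neighbour was 856 kb away and scored 4.69. Equal scores of 147 were found at chr8:27824273-27824610 and at chr19:17407580-17407883, the highest peaks of their chromosomes. The peak chr14:35387353-35387727 scored 143 and had a neighbour only 746 bp away, midpoint to midpoint, with a score of 24.69. A second peak on chromosome 8, chr8:122892682-122893141, also scored 143 and was 459 bp wide. Neighbours on chromosome 6 took ranks 24 and 26, chr6:120124507-120125241 with a score of 141 and chr6:120100174-120100568 with a score of 136. Between them came chr17:8609803-8610213, with a score of 140.3 and no other peak within 575 kb. The peak chr6:91496055-91496675 scored 134 although it stood at place 3 of the list, where the ceiling was higher. The last were chr7:20238020-20238257 with a score of 133, chr5:147236241-147236560 with 132 and chr11:75380417-75380698 with 131, the latter pair being the highest of their chromosomes. These 15 peaks included sites standing alone over long distances as well as sites with a neighbour under 10 kb away, so a high score was found in either setting.

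The strongest peaks were wider than the other autosomal peaks. Their median width was 314.5 bp (95% interval of the median 306 to 328 bp, n = 280), the quartiles were 263 and 387 bp, and widths ran from 170 to 740 bp. The other autosomal peaks had a median of 218 bp (214 to 223 bp, n = 3692), quartiles of 163 and 296 bp and a full range from 128 to 1802 bp. The interquartile ranges overlapped, so width alone does not tell the classes apart. A width of 300 bp or more was found at 165 of the 280 strongest peaks (58.9%, exact Clopper-Pearson 95% interval 52.9 to 64.7%), beside 26.7% of all autosomal peaks. Only 13 of the strongest (4.64%, interval 2.49 to 7.81%) were 200 bp wide or less, beside 40.2% of all autosomal peaks. On all 19 autosomes the median width of the strongest peaks was above that of the other peaks. Width and score come from the same peak calling of the same sample, so this difference is described and not tested. The intervals cover counting error and treat the peaks as independent.

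Median width was higher in each successive score band from 30 upward. From scores of 30 to 40 the median was 203 bp (196 to 212 bp, n = 1044), and from 40 to 60 it was 262 bp (244 to 278 bp, n = 421). Among the strongest peaks it was 301 bp from 60 to 80 (280 to 317 bp, n = 149), 314 bp from 80 to 100 (295 to 348 bp, n = 70), 334 bp from 100 to 150 (312 to 374 bp, n = 45) and 364 bp from 150 upward (305 to 434 bp, n = 16). Intervals of neighbouring bands overlapped within the strongest peaks, so their order there is not resolved. Below a score of 40 the medians did not follow the score throughout, since the band from 20 to 30 (232 bp, 212 to 249 bp, n = 381) was wider than that from 30 to 40.

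**Figure D2:**
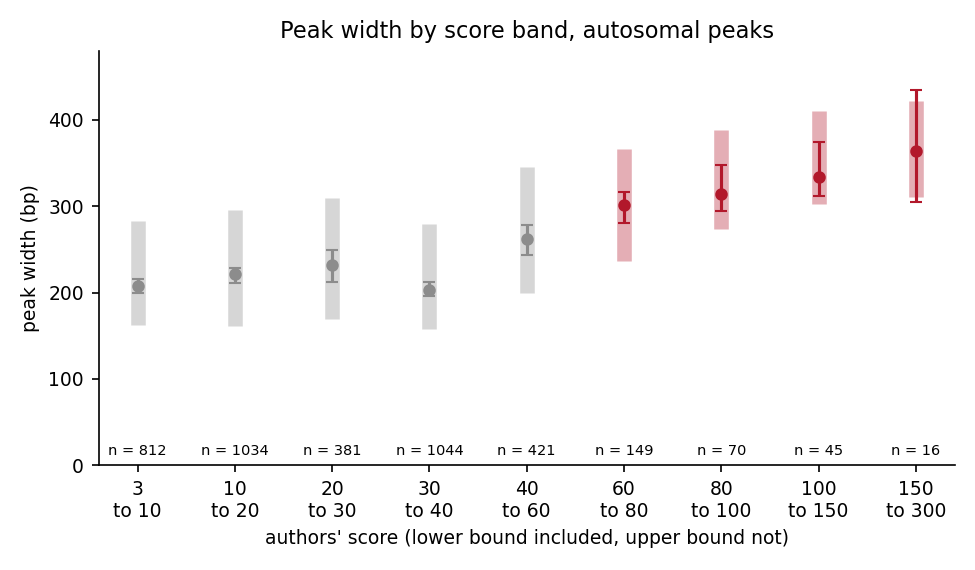
Peak width in bp (vertical axis) by band of the authors' score (horizontal axis) for autosomal peaks, with the median as a point, its 95% interval as a whisker and the interquartile range as a pale bar. The 4 red bands, from a score of 60 upward, have medians of 301 to 364 bp, and the grey bands below have medians of 203 to 262 bp.

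The difference in median width was small among peaks of like place in the list, a comparison chosen after the data were seen. The 380 other autosomal peaks within the first 673 places had a median width of 306 bp (292 to 326 bp), whose interval overlaps that of the strongest peaks. In blocks of 100 places from 1 to 700, the strongest peaks had the higher median width in 3 of 7 blocks and the lower in 4. In the first block the 57 strongest peaks had a median width of 362 bp and the others 331 bp, and in the third block the medians were 306 and 334 bp. Early in the list, median widths of peaks scoring 60 or more and below 60 did not differ beyond these intervals. A width of 300 bp or more was found at 51.8% of the 380 others (46.7 to 57.0%). For the strongest peaks it was 58.9% (52.9 to 64.7%), an interval that lies above 51.8% but overlaps that of the others. None of the 380 others lay within 2% of the ceiling. The ceiling up to place 673 was at least 60.2 and these peaks scored below 60. This count is thus nearly fixed by construction, and nothing is read from it. Within the strongest peaks, the 59 below the ceiling had a median width of 343 bp (306 to 387 bp) and the 221 at it 312 bp (298 to 322 bp), with overlapping intervals.

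The widest of the strongest peaks was chr17:73371706-73372446, with a width of 740 bp and a score of 152. Close to it in width were chr6:120124507-120125241 at 734 bp and chr5:150326767-150327490 at 723 bp, the latter with a score of only 67.1 but at place 13 of the list. The narrowest were chr18:34505797-34505967 at 170 bp, chr13:54697720-54697896 at 176 bp and chr10:116221259-116221440 at 181 bp, with scores of 75.4, 66.1 and 74.3. Both ends of the width range thus held peaks of moderate score. Chromosome 5, singled out after its values were seen, had the highest median width of the strongest peaks by autosome, 471.5 bp from 185 to 723 bp over 10 peaks. The other autosomes had medians between 281.5 and 358 bp. With 10 peaks the interval of the chromosome 5 median ran from 209 to 568 bp and so covered all of these.

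The strongest peaks had a lower median distance to the nearest other peak than the other autosomal peaks, but not beyond the intervals. The median distance from midpoint to midpoint to the nearest other peak was 87.7 kb (71.4 to 113 kb) for the strongest peaks and 113 kb (104 to 122 kb) for the other autosomal peaks, with overlapping intervals. Another peak lay within 10 kb of 39 of the 280 (13.9%, interval 10.1 to 18.5%), against 10.9% (9.88 to 11.9%) of the others and 11.1% of all autosomal peaks. Within 1 kb the count was 7 (2.50%, interval 1.01 to 5.08%), beside 2.04% of all autosomal peaks. Within 50 kb it was 97 (34.6%, interval 29.1 to 40.5%), beside 31.8% of all autosomal peaks. These shares are near the background and show no difference beyond counting error. At 100 kb the share was 53.6% (47.5 to 59.5%, 150 of 280), against 47.4% (45.8 to 49.1%) of the others and 47.9% of all autosomal peaks. The share of the others lay just below the interval of the strongest peaks, although the 2 intervals overlapped. No other peak lay within 500 kb of 27 strongest peaks (9.64%, interval 6.45 to 13.7%), beside 13.1% of all autosomal peaks. The 380 others within the first 673 places had a median distance of 87.8 kb (69.4 to 107 kb), nearly that of the strongest peaks, and 14.5% of them (11.1 to 18.4%) had a neighbour within 10 kb.

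**Figure D3:**
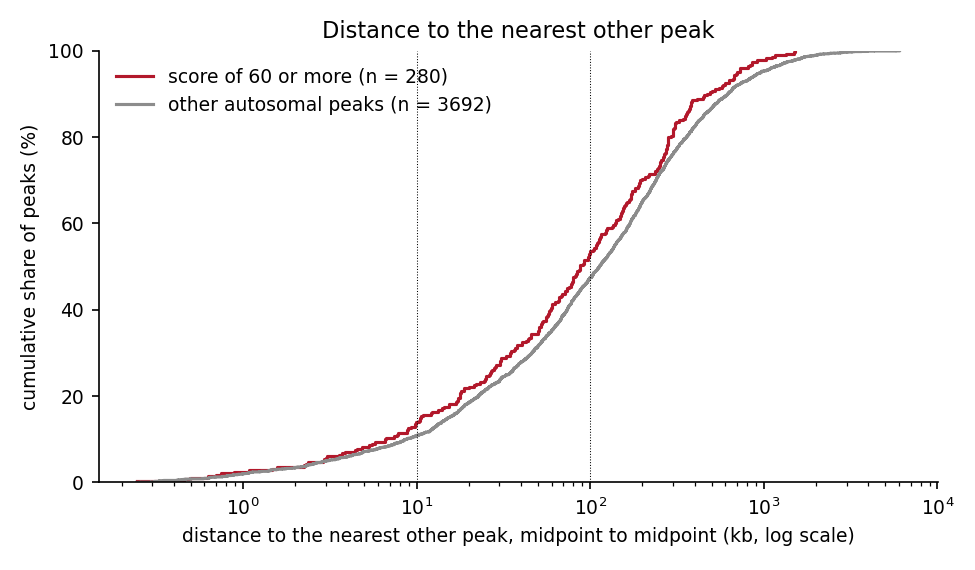
Cumulative share of peaks in percent (vertical axis) by distance in kb from a peak's midpoint to that of the nearest other peak (horizontal axis, log scale), for the 280 strongest (red) and 3692 other autosomal peaks (grey), with dotted lines at 10 and 100 kb. The red curve runs slightly above the grey one, at 13.9% against 10.9% at 10 kb. The 90th percentile of the distance was 473 kb for the strongest and 620 kb for the others.

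Strongest peaks had each other as nearest neighbours about as often as the list at large had a strongest peak as its nearest. The nearest other peak had a score of 60 or more at 20 of the 280 (7.14%, interval 4.42 to 10.8%), close to the 7.58% of all autosomal peaks with such a nearest neighbour. The score of the nearest peak had a median of 24.9 (21.0 to 30.3) for the strongest and 22.8 (21.3 to 24.49) for the others. Neither measure showed a difference beyond counting error between strong and other peaks in how strong their neighbours were. The median distance between a strongest peak and the next strongest peak on its chromosome was 2.37 Mb (1.63 to 2.81 Mb). When all peaks with midpoints at most 50 kb apart were joined, 183 of the 280 stood alone (68.2% of all autosomal peaks did), 67 were in pairs (22.6% of all autosomal peaks) and 30 were in longer runs (9.24% of all autosomal peaks).

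At the 39 strongest peaks with a neighbour within 10 kb, the neighbour had a score like that of close neighbours elsewhere. Its score had a median of 22.7 (15.8 to 34.5) and a range of 4.26 to 95.3, against a median of 20.6 (18.5 to 24.67) at the 401 other autosomal peaks with a neighbour within 10 kb. The neighbour's score lay below 50% of the score of the strong peak in 30 of 39 cases. The neighbour scored higher in 1 case only, which is the lower peak of a pair in which both scored over 60. The choice of strong peaks by score fixes the direction of these counts, and nothing is read from them. Neighbours were narrower than the strong peak in 23 of 39 cases. Their median width was 292 bp (271 to 349 bp) against 320 bp (295 to 374 bp), with overlapping intervals. The 401 other autosomal peaks with a neighbour within 10 kb had a median width of 261 bp (247 to 278 bp). No such count was made over all autosomal peaks, so nothing is read from the 23 cases.

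The closest pair was formed by chr7:142994444-142994648, with a score of 86.5, and a peak 245 bp away with a score of 27.6. Next were chr15:12679304-12679633, with a score of 93.6 and a neighbour at 456 bp scoring 21.6, and chr8:46743452-46743652, with a score of 77.2 and a neighbour at 494 bp scoring 4.26. The edges of the peaks in each of these pairs were closer still than their midpoints. At the other end stood chr16:54354590-54355016 with a score of 60.8 and the nearest peak 1509 kb away, chr13:18833503-18833775 with a score of 74.8 at 1485 kb, and chr5:42235371-42235855 with a score of 108 at 1347 kb. Distance to the next peak thus ranged over more than 3 orders of magnitude among peaks of like score.

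**Figure D4:**
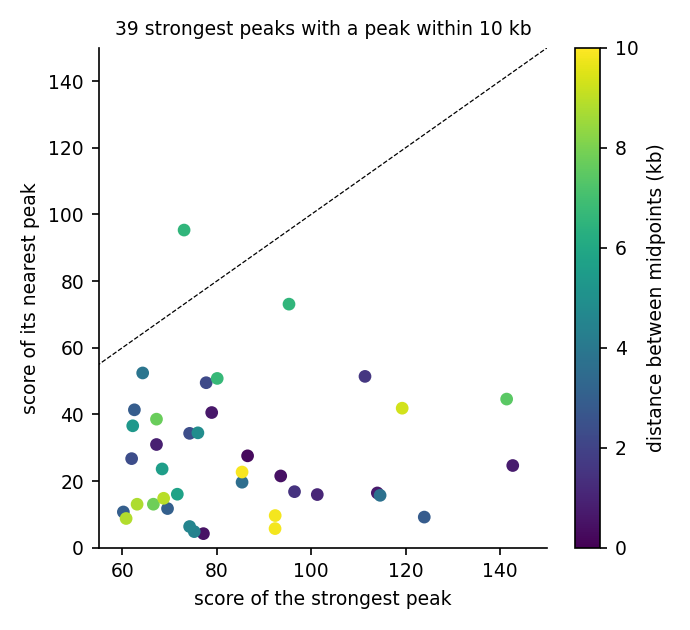
Score of the nearest peak (vertical axis) against the score of the strongest peak (horizontal axis) for the 39 strongest peaks with another peak within 10 kb, coloured by the distance in kb, with equal scores on the dashed line. In 38 of 39 cases the point lies below the line, and neighbours scoring under 10 occur beside strong peaks at 7 sites.

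Where strong peaks did occur together, they formed small groups. Joining those with midpoints at most 100 kb apart gave 10 pairs and 1 group of 3, which together held 23 of the 280 peaks (8.21%, interval 5.28 to 12.1%). A strongest peak other than itself lay within 100 kb of 5.82% of all autosomal peaks, a share inside that interval. The group of 3 lay on chromosome 7, with chr7:20147764-20148034 scoring 77.8, chr7:20238020-20238257 scoring 133 and chr7:20329974-20330254 scoring 80.01, over 182 kb with 1 weaker peak between them. The tightest pair was on chromosome 18, where chr18:35205427-35205701 scored 95.3 and chr18:35211846-35212344 scored 73.1 at a distance of 6.53 kb. It was the only pair of strongest peaks within 10 kb, so 2 of the 280 had such a neighbour, beside 0.982% of all autosomal peaks. The pair with the highest scores in both peaks was chr6:120100174-120100568, scoring 136, and chr6:120124507-120125241, scoring 141, which were 24.503 kb apart with no peak between them.

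The other pairs combined peaks of unlike score or of moderate score. On chromosome 15, chr15:85939735-85940021 scored 94.1 and lay 62.9 kb from chr15:86002550-86002928, which scored 166. On chromosome 16, chr16:43610476-43610703 scored 153 and lay 91.4 kb from chr16:43701885-43702187, which scored 68.8. On chromosome 7, chr7:56401123-56401632 scored 81.9 and chr7:56488441-56488875 scored 156, at 87.3 kb. These 3 pairs each joined the top peak of an autosome to one of much lower score. Scores under 100 in both peaks were found for chr1:94595657-94595974 (81.9) with chr1:94671966-94672326 (69.6), chr2:27065501-27065812 (93.6) with chr2:27136859-27137127 (80.7) and chr6:58829551-58829851 (74.3) with chr6:58879805-58880038 (63.2). The same held for chr9:21133578-21133797 (71.0) with chr9:21207238-21207557 (97.7) and chr12:86776992-86777443 (68.1) with chr12:86814722-86815085 (76.6). A weaker peak lay between the members of 4 of the 11 groups, so 7 were uninterrupted.

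All 19 autosomes held strongest peaks, from 7 on chromosome 19 to 24 on chromosome 2. As a share of the peaks of each chromosome, they made up 10.1% on chromosome 12 (interval 6.01 to 15.7%, 17 of 168), 9.70% on chromosome 18 (5.64 to 15.3%, 16 of 165) and 9.28% on chromosome 7 (5.91 to 13.7%, 22 of 237). The lowest shares were 4.26% on chromosome 4 (2.15 to 7.50%, 11 of 258), 4.37% on chromosome 5 (2.11 to 7.88%, 10 of 229) and 4.55% on chromosome 14 (1.98 to 8.76%, 8 of 176). The interval of each of the 19 autosomes held the overall share of 7.05%, so no chromosome stood apart beyond counting error. Per length, the strongest peaks numbered 0.118 per Mb of the span from an autosome's first peak to its last (Poisson interval 0.104 to 0.133). The lowest density was 0.0661 per Mb on chromosome 3 (0.0317 to 0.122) and the highest 0.19 per Mb on chromosome 18 (0.109 to 0.308), and all 19 intervals again held the overall value.

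**Figure D5:**
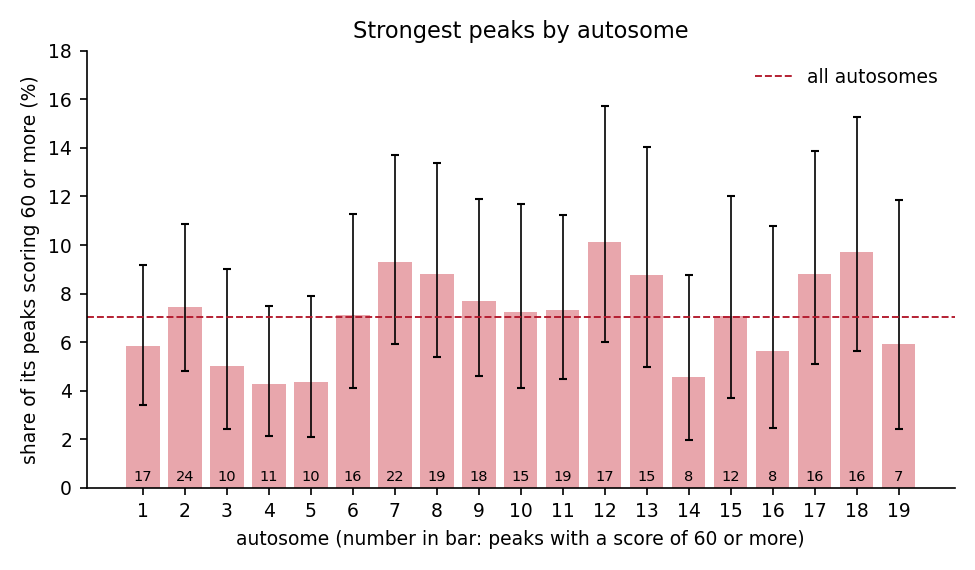
Share of each autosome's peaks that scored 60 or more, in percent (vertical axis), by autosome (horizontal axis), with exact 95% binomial intervals as whiskers, the number of such peaks in each bar and the share over all autosomes as a dashed line. Bars run from 4.26% on chromosome 4 to 10.1% on chromosome 12, and every whisker crosses the dashed line at 7.05%.

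Most windows along the autosomes held few or none of the 280 peaks, and no expected count was computed. Of the 484 windows of 5 Mb that held at least 1 autosomal peak, 284 held no strongest peak, 138 held 1, 47 held 2 and 13 held 3. The fullest window, on chromosome 18 from 35 to 40 Mb, held 5 strongest peaks among 20, with scores of 60.3 to 95.3, and included the tight pair named above. The next, on chromosome 7 from 125 to 130 Mb, held 4 among 11 peaks, with scores of 68.4 to 76.0. Strongest peaks made up 7.05% of all autosomal peaks. Both windows were singled out for their counts after the values were seen, so nothing is read from their higher shares.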

How the data were processed

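The one table used was the peak list of the immunoprecipitate. Per the note deposited with it, the authors called peaks with QuEST and gave each a score, which QuEST names ef. The note describes this score as a number of reads after normalization. Whether the score also depends on the inputs could not be checked here, so a high score need not mean the most reads. The normalization, aligner, thresholds and read depth are not stated in the sources used here. The build was mm9, per the submitters' processing notes. Starts may count from 0. The inputs were not analysed here.

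Peaks were grouped by a minimum score of 60. The members, lists and comparisons were chosen with earlier results of these data known. Peaks named by position were ranks 16 to 30, the highest of each autosome, the 3 either side of the minimum, the 3 widest, narrowest, closest and farthest, and groups within 100 kb. No p-value was computed, since score, width and spacing come from 1 sample and 1 peak calling. Medians have binomial order-statistic intervals and shares Clopper-Pearson intervals (95%). The code was tested on simulated data. Genes and motifs were left out, because the gene table at hand is on another assembly. Alternatives were other minimum scores, merging within 500 bp and other neighbour definitions. Tools were scipy 1.17.1, numpy 2.4.6 and pandas 2.3.3 in Python 3.11.15, and figures were drawn with matplotlib 3.10.9.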

Additional observations from a re-analysis of the deposited data

How the results depend on the processing

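Of 84 values recomputed under alternatives, 60 stayed within the interval of the reported value, or within 1.5 times the reported count. At a minimum score of 80 131 strongest peaks remained, with 329 bp as median width, and at 100 there were 61 with 337 bp, when the other peaks had 224 bp. Merging peaks within 500 bp gave 9.54% of the other peaks a neighbour within 10 kb. With neighbours of the same class only, by construction, the median distance was 2375 kb for the strongest and 125 kb for the others, and 0.714% of the strongest had a neighbour within 10 kb. At 50 kb the shares were 34.6% and 31.6%, and at 1 kb they were 2.50% and 2.00%. Keeping the first 2006 places of the list gave the others a width of 253 bp, distances of 172 and 196 kb, and shares of 9.64% and 9.24%. All strongest peaks stayed in this shorter list while possible neighbours were removed, so by construction their distances could not fall. Others up to place 673, chosen after seeing the data, had 306 bp, 87.8 kb and 14.5%, so the differences from the strongest in width and spacing were small or turned. Among peaks at the ceiling, also chosen later, the strongest had 312 bp, 96.5 kb and 13.1%. The others had 204 bp, 132 kb and 8.77%, so there the differences were at least as large as reported. The ceiling falls along the list, so these strongest peaks stood at places 1 to 673 and these others at places 678 to 4012. That comparison therefore sets early places against late ones and cannot separate score from place. Leaving out chromosome 18, also chosen later, moved no value outside its interval. The alternatives for motifs and nearest genes were not run, for want of an mm9 genome. No paired analysis was possible because 1 immunoprecipitate was analysed. Read depth is unknown, and intervals over peaks say nothing about variation between animals.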

Other observations

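Long stretches without any strongest peak were found on several chromosomes, and they were singled out after the values were seen. On chromosome 5 the interval from 42235855 to 89358225 was the longest of those measured, at a midpoint distance of 47.1 Mb. It held 33 weaker peaks. Others were on chromosome 4 from 47683632 to 86303082 (38.6 Mb, 47 weaker peaks), on chromosome 10 from 24313734 to 61883942 (37.6 Mb, 48 weaker peaks) and on chromosome 14 from 70093410 to 106075609 (36.0 Mb, 34 weaker peaks).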
